A study of Mus musculus with 48 samples.

Results

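Livers of wild-type C57BL/6 mice on the control regimen were collected at 4 clock times, and these 12 libraries of the 48 in the series are described here as a record of the liver's daily rhythm. The libraries were chosen by their titles, which give genotype, regimen and a time code, with 3 livers each at 6am, noon, 6pm and midnight. All 12 mice had taken a maltose liquid diet for 10 days and, at 9am on day 11, a gavage of 9 g/kg maltose dextrin. Comparison livers came from wild-type mice on a 5% ethanol diet with a 5 g/kg ethanol gavage, and from control-diet mice labelled as knockouts of the nuclear receptor SHP, each with 12 libraries at the same clock times. Livers of a group came from separate mice, per the design text. The clock time and the time since the gavage changed together and cannot be told apart. Whether the noon livers came before or after the others was not given in the sources used here, nor were the light schedule, sex and age. A treatment tag in the labels disagreed with the titles in 24 of the 48 libraries, including all 6 wild-type controls of noon and 6pm. The titles, which fit the design text, were used.

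The circadian clock of hepatocytes is a loop in which the transcription factors BMAL1 and CLOCK switch on the Period and Cryptochrome genes, whose proteins then switch BMAL1 and CLOCK off. A second loop holds the REV-ERB receptors, which repress Arntl, the gene of BMAL1, through sites they share with the activating ROR receptors. Through these factors and the PAR bZIP factors DBP, TEF and HLF, the clock times the liver's metabolism of lipid, sugar, bile acid and drugs, and feeding, body temperature and glucocorticoids act on many of the same genes.

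The libraries held 11554495 to 19780144 reads in genes, so that 1 read over 1000 bases came to between 0.0506 and 0.0865 FPKM (fragments scaled by gene length and library size, the deposited unit). Between 4.08% and 6.15% of reads fell in mitochondrial genes, and between 7.03% and 9.76% in Alb, the albumin gene. Summed hepatocyte markers lay between 57400 and 73100 FPKM in every liver, but after the scaling described below their level moved with the time of day. Of the 11 tested 3 were called for time of day by the test described below (27.3%), all with the peak at 6pm, and 4 were higher at 6pm than at noon. Their scaled mean log2 level was 10.24 to 10.38 in the noon livers, 10.37 to 10.43 at 6am, 10.59 to 10.77 at 6pm and 10.46 to 10.65 at midnight. On that scale noon and 6pm did not overlap, but their sums of deposited FPKM did (57400 to 60300 at noon and 59500 to 73100 at 6pm). Their part in the 6pm peaks was not tested. The exocrine pancreas genes Cela3b, Cpa1, Cpb1, Try4, Pnlip, Clps and Cel were listed at 0 in all 12 livers. In whole tissue, fewer cells of a type and less RNA per cell cannot be told apart. The first principal component (34.5% of the variance) placed the 6am and noon livers together, between -13.4 and -17.2. The 6pm livers lay at 39.7, 9.2 and 29.4 and the midnight livers at 15.1, 5.7 and -2.2, and along it the 3 livers of 6pm were the farthest from each other.

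Time of day changed 1496 of the 12729 genes tested, which is 11.8% (limma, the 4 times tested jointly, adjusted p under 0.05 with Benjamini-Hochberg adjustment over all genes tested). At an unadjusted p under 0.05 there were 3897 genes (30.6%). Of the called genes, 325 (2.55% of those tested) spanned more than 2-fold between their highest and lowest mean, on the log2 scale of FPKM with 0.5 added that is used for all differences here. The highest mean fell at 6am for 374 called genes (2.94% of those tested), at noon for 316 (2.48%), at 6pm for 494 (3.88%) and at midnight for 312 (2.45%). These counts depended on scaling: with library totals alone, in place of the trimmed-mean factors used here, 2681 genes were called, with 894 peaks at 6am, 1301 at noon and 225 at 6pm. Among all genes tested, called or not, 33.1% were highest at 6pm and 21% to 24.7% at each of the other times. Leaving out a single library gave between 855 called genes (without midnight replicate 1) and 1896 (without 6pm replicate 1). The count dropped by more than 1.5 times without any 6am library (882 to 906), any noon library (928 to 983), 6pm replicate 2 (993) or midnight replicate 0 (972). Counts of list members given below for other fits are to be read beside the number called over all genes in that fit.

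**Figure D1:**
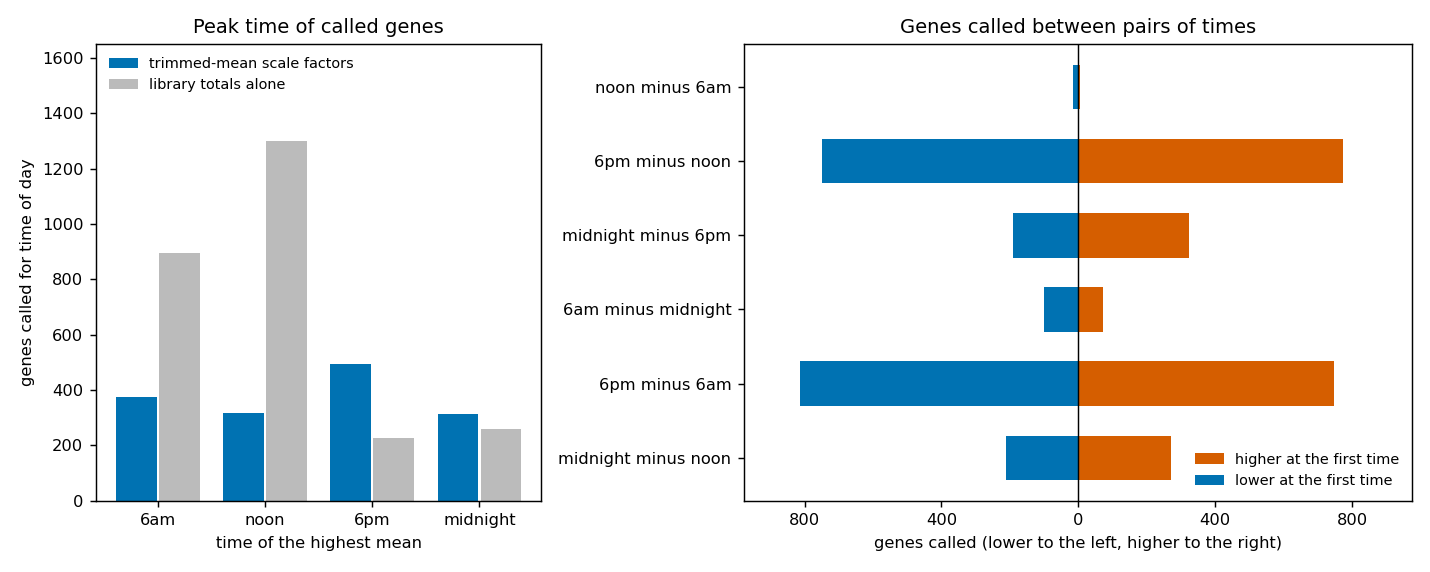
The left panel gives the number of genes called in the 12 wild-type control livers (limma, adjusted p under 0.05) by the time of the highest mean, with trimmed-mean scale factors in blue and library totals alone in grey. The right panel gives for each pair of times the genes higher (right) and lower (left) at the first time, from 21 in all for noon minus 6am to 1562 for 6pm minus 6am. With trimmed-mean factors 6pm has the most peaks (494), and with library totals alone noon does (1301).

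The 4 times were unevenly spaced in expression. Between 6am and noon 21 genes changed (0.165% of those tested, with 927, or 7.28%, at an unadjusted p under 0.05), and between noon and 6pm 1523 changed (12%), 6.08% of all genes upward and 5.88% downward. From 6pm to midnight 513 genes changed (4.03%), 323 upward (2.54%) and 190 downward (1.49%), and from midnight to 6am 170 (1.34%). Against 6am, the 6pm livers had 748 higher (5.88%) and 814 lower genes (6.39%), 12.3% in both directions, and midnight against noon differed in 483 (3.79%). For 338 of the 374 genes that peaked at 6am the lowest mean fell at 6pm, and 360 of the 374 were higher at 6am than at 6pm in that pair's own test. Single libraries moved these counts. Noon against 6am gave 12 to 14 genes without any library of either time and 31 without 6pm replicate 0. Noon against 6pm gave 703 to 721 without any noon library, and 6am against 6pm gave 607 to 785 without any 6am library. Midnight against 6pm gave 180 to 249 without any midnight library, 296 without 6pm replicate 2, and 750 and 792 without 6pm replicates 0 and 1. Midnight against noon gave 164 without midnight replicate 0, 180 without midnight replicate 1, 207 to 311 without any noon library and 1009 without 6pm replicate 0. Midnight against 6am gave 37 to 95 without any library of either time and 423 without 6pm replicate 0.

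The split by direction depended on scaling. With library totals alone the median gene was 0.22 lower (log2) at 6pm than at noon, and that pair had 328 higher and 2664 lower genes (11% higher) in place of 774 and 749 (50.8%). On the same scaling 6pm against 6am had 283 higher and 2087 lower genes (11.9% against 47.9%), and midnight against noon had 204 higher and 986 lower (17.1% against 56.3%). The share of higher genes was 78.1% against 63% from 6pm to midnight and 71.9% against 41.8% from midnight to 6am. Of 123 called genes picked out for description, 7 had their highest mean at another time with library totals alone, namely Psmd11, Psma5, Cpox, Adh4, Hfe2, G0s2 and mt-Ts2.

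Among the activators of the clock and genes under REV-ERB repression, 5 of 8 tested changed over the day, against the 11.8% of all genes. Their median range was 1.75 (log2), against 0.31 for all genes tested. Arntl (ENSMUSG00000055116, GRCm38 chromosome 7, 113207465 to 113314126) read 15.0, 14.3 and 15.0 FPKM at 6am, 6.67, 5.12 and 5.56 at noon, 0.788, 0.825 and 0.350 at 6pm and 8.49, 7.55 and 9.32 at midnight. No liver of 6am overlapped with any other time, and the 3 livers of 6pm were the 3 lowest of the day. Arntl fell by 1.31 ± 0.17 (log2, SE) from 6am to noon (limma adjusted p = 0.00788) and by 3.61 ± 0.17 between 6am and 6pm (adjusted p = 7.12e-07). Npas2, a paralogue of Clock that also pairs with BMAL1, read 3.16, 2.82 and 2.24 FPKM at 6am, 0.30, 0.410 and 0.516 at noon, 0.0292, 0 and 0 at 6pm and 0.0722, 0.0690 and 0.298 at midnight. It was far above the other times in the 3 livers of 6am and close to no read in those of 6pm (joint adjusted p = 3.3e-05). Clock itself was at 6.09 to 8.06 FPKM in the livers of 6am and noon and at 2.40 to 2.45 at 6pm, a fall of 1.19 ± 0.13 between 6am and 6pm (adjusted p = 0.000411).

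Cry1, which REV-ERB also represses, had its lowest mean at 6pm and its highest at midnight. Cry1 read 19.0, 10.8 and 7.74 FPKM at 6am, 3.47, 3.71 and 3.86 at noon, 3.75, 3.55 and 2.41 at 6pm and 15.3, 13.2 and 14.3 at midnight. The midnight and 6am livers overlapped, and both lay above every liver of noon and 6pm (midnight minus noon 1.97 ± 0.26, adjusted p = 0.00247). Nfil3, a repressor that competes with the PAR bZIP factors, read 31.3, 27.9 and 29.0 FPKM at 6am and 3.64 to 18.7 at the other times. Its 6am livers were the highest, but the joint test missed the threshold (adjusted p = 0.0768), as it did for Rora (0.671) and E2f8 (0.132).

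**Figure D2:**
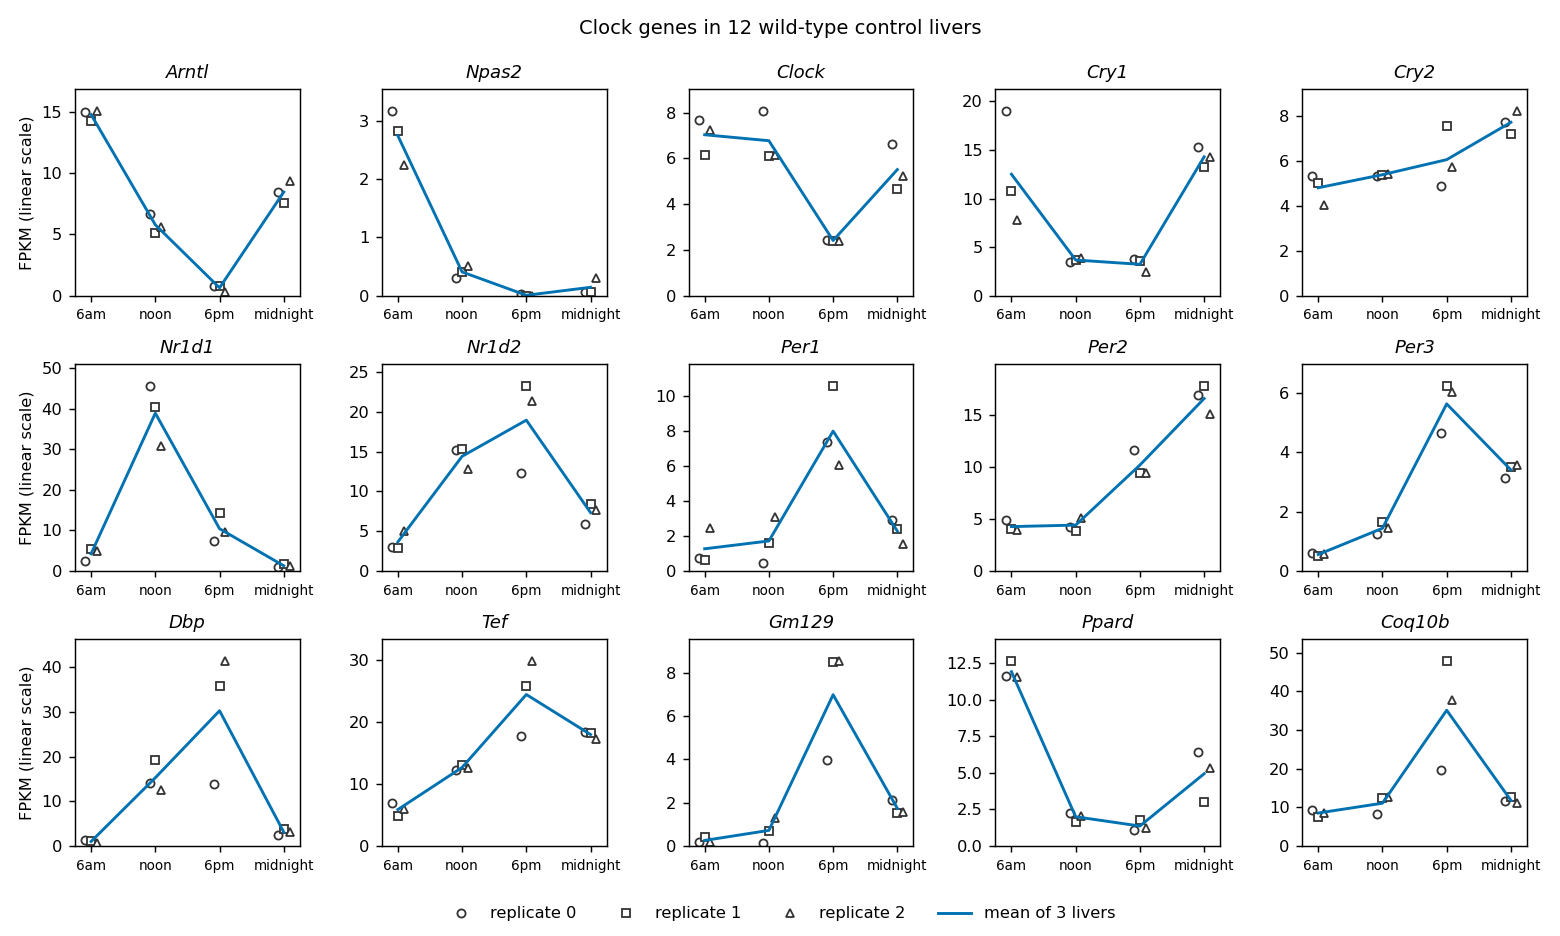
FPKM (linear axis) of 15 clock genes and clock outputs by clock time in the wild-type controls, with a symbol for each of the 3 livers and a line through their means. Arntl runs from a mean of 14.8 FPKM at 6am to 0.654 at 6pm, and Nr1d1 is highest in the 3 noon livers.

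Of the repressors of the clock, 6 of 10 tested changed (60.0%, against 11.8% of all genes), with a median range of 1.43. Their peaks fell at noon, 6pm and midnight. Nr1d1 (ENSMUSG00000020889, GRCm38 chromosome 11, 98767932 to 98775333), the gene of REV-ERBα, read 2.34, 5.43 and 4.92 FPKM at 6am, 45.5, 40.5 and 30.7 at noon, 7.44, 14.3 and 9.55 at 6pm and 1.05, 1.61 and 1.16 at midnight. The livers of the 4 times did not overlap. It was higher at noon than at 6am by 3.07 ± 0.28 (adjusted p = 0.00081) and fell by 4.32 ± 0.28 from noon to midnight (adjusted p = 5.6e-05). Nr1d2, the gene of REV-ERBβ, read 3.06, 2.88 and 5.01 FPKM at 6am, 15.2, 15.3 and 12.8 at noon, 12.3, 23.2 and 21.4 at 6pm and 5.91, 8.45 and 7.64 at midnight. Its noon and 6pm livers overlapped and lay above all others (6pm minus 6am 2.39 ± 0.22, adjusted p = 0.000122).

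The 3 Period genes, whose proteins inhibit BMAL1 and CLOCK, were low at 6am and noon and peaked at 6pm or midnight. Per1 read 0.739, 0.629 and 2.42 FPKM at 6am, 0.474, 1.58 and 3.07 at noon, 7.38, 10.5 and 6.03 at 6pm and 2.89, 2.41 and 1.52 at midnight. Only the 6pm livers stood clear of the rest (6pm minus 6am 2.53 ± 0.46, adjusted p = 0.007). Per2 lay at 3.87 to 5.09 FPKM in the 6 livers of 6am and noon, at 9.44 to 11.7 at 6pm and at 15.1 to 17.8 at midnight. It rose by 1.33 ± 0.15 from noon to 6pm (adjusted p = 0.00097) and by 0.62 ± 0.15 from 6pm to midnight (adjusted p = 0.044). Per3 read 0.605, 0.492 and 0.568 FPKM at 6am, 1.24, 1.64 and 1.44 at noon, 4.65, 6.23 and 6.03 at 6pm and 3.14, 3.5 and 3.58 at midnight, with no overlap between times. Its rise of 2.68 ± 0.11 between 6am and 6pm had an adjusted p of 4.03e-07. Cry2 had a narrower range, with 7.22 to 8.23 FPKM at midnight against 4.05 to 5.44 at 6am and noon (joint adjusted p = 0.0109). For Bhlhe40 (0.204), Csnk1d (0.266) and Csnk1e (0.813) the joint adjusted p missed the threshold, and Bhlhe41 was too low to be tested.

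The promoters of 5 of the changing genes are printed because they hold the letters that clock factors are known to bind. BMAL1 and CLOCK bind the E-box CACGTG, and DBP, TEF and HLF bind the D-box TTANGTAA. The sequences are the 250 bases upstream of 1 RefSeq start per gene (GRCm38.p6), 5′ to 3′ on the gene's strand. They are in lower case with each match to either motif, on either strand, in capitals. A gene can have other starts, which are not shown. Per1 (chr11:69098699-69098948, plus strand) held an E-box 166 to 161 bases before the start. This window lies inside the GENCODE span of Per1, which begins at 69095217. Gm129 (chr3:95882229-95882478, minus strand), an older symbol of the clock repressor Ciart, held 3 E-boxes, of which the nearest lay 44 to 39 bases before the start. Per3 (chr4:151044666-151044915, minus strand) held 2 D-boxes, 205 to 198 and 158 to 151 bases before the start. Coq10b (chr1:55052520-55052769, plus strand), whose product binds coenzyme Q, held an E-box 78 to 73 and a D-box 162 to 155 bases before the start. Cry1 (chr10:85185055-85185304, minus strand) held an E-box 60 to 55 bases before the start. None of these matches overlapped another. Over the 32851 promoters of this length in the RefSeq table, 6.02% held the E-box and 2.06% the D-box. Among the 12236 promoters of tested genes these shares were 8.33% and 1.45%. Promoters were found for 75.6% of the tested symbols, too few to compare the motifs between peak times.
Per1: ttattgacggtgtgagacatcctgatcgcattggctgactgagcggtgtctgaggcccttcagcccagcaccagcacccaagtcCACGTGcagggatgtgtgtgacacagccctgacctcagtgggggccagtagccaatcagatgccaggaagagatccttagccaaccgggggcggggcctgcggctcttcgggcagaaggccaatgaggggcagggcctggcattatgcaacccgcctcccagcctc
Gm129: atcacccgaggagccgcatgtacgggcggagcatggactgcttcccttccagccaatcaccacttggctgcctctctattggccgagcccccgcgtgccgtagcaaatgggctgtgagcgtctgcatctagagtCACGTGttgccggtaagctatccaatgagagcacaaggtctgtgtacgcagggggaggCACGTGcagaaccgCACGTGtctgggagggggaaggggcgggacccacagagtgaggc
Per3: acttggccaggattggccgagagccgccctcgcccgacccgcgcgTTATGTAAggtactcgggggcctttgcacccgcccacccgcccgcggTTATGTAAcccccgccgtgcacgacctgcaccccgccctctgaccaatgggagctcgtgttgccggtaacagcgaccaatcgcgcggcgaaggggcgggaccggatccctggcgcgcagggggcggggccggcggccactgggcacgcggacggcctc
Coq10b: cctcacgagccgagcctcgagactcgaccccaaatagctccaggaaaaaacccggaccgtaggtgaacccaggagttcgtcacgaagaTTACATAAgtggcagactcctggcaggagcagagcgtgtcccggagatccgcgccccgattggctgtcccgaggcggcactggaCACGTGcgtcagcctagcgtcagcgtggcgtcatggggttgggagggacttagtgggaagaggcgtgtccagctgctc
Cry1: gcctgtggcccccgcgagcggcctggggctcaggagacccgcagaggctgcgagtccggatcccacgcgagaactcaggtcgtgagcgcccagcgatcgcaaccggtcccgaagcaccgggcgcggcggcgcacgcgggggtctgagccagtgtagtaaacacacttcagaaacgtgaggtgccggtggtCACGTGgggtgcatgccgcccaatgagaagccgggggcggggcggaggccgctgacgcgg

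The PAR bZIP factors and other output genes of the clock changed in 14 of 15 cases (93.3%, against 11.8% of all genes). Their median range was 1.78. Of the 14, 10 peaked at 6pm. Dbp read 1.27, 1.02 and 0.738 FPKM at 6am, 14.1, 19.3 and 12.4 at noon, 13.8, 35.7 and 41.3 at 6pm and 2.44, 3.84 and 3.05 at midnight. It was already high at noon, and 6pm replicate 0 stood at the noon level while the other 6pm livers were higher (6pm minus 6am 4.39 ± 0.31, adjusted p = 1.79e-05). Tef read 4.83 to 6.85 FPKM at 6am, 12.3 to 13.0 at noon, 17.7 to 29.7 at 6pm and 17.3 to 18.3 at midnight (6pm minus 6am 2.13 ± 0.15, adjusted p = 1.59e-05). Hlf moved by 0.57 at most and was highest at midnight (joint adjusted p = 0.0346). Its call was lost in 12 of the 22 other fits, where its adjusted p ran from 0.0255 to 0.182.

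Gm129 read 0.190, 0.404 and 0.179 FPKM at 6am, 0.151, 0.706 and 1.31 at noon, 3.95, 8.47 and 8.52 at 6pm and 2.14, 1.52 and 1.55 at midnight. Its 6pm livers lay above all others, replicate 0 least (6pm minus 6am 3.38 ± 0.33). Coq10b read 9.40, 7.62 and 8.60 FPKM at 6am, 8.30, 12.3 and 12.6 at noon, 19.7, 47.8 and 37.9 at 6pm and 11.7, 12.6 and 11.1 at midnight. Here too the 3 livers of 6pm were the highest, and replicate 0 had the lowest of the 3 values (2.08 ± 0.25). Por, the reductase that supplies electrons to microsomal P450 enzymes, was at 26.2 to 32.2 FPKM in the livers of 6am and noon, 47.4, 108 and 87.1 at 6pm and 62.5 to 72.3 at midnight (6pm minus 6am 1.68 ± 0.21, adjusted p = 0.0008). Nampt, the enzyme that recycles nicotinamide to NAD, read 16.9, 37.7 and 39.1 FPKM at 6pm, 27.0 to 29.7 at midnight and 13.5 to 16.3 at 6am and noon (joint adjusted p = 0.0072). Usp2, a deubiquitinase, and Wee1, a kinase that delays mitosis, also peaked at 6pm (joint adjusted p = 0.00168 and 0.000432). In the opposite phase stood Ppard, a nuclear receptor of lipid metabolism, with 11.6, 12.6 and 11.5 FPKM at 6am, 2.28, 1.64 and 2.08 at noon, 1.09, 1.79 and 1.23 at 6pm and 6.42, 3.04 and 5.37 at midnight. The 6am livers of Ppard were the highest of the day, and it had fallen by 2.33 ± 0.21 by noon (adjusted p = 0.00081). Upp2, uridine phosphorylase 2, was not called (joint adjusted p = 0.542), with 4.76, 80.8 and 83.6 FPKM in the 3 livers of 6pm and 10.1 to 41.1 elsewhere.

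Among the called genes that peaked at 6am the widest range belonged to Elovl3 (ENSMUSG00000038754, GRCm38 chromosome 19, 46131897 to 46135694), an elongase of long fatty acids. Elovl3 read 475, 342 and 344 FPKM at 6am, 249, 153 and 167 at noon, 3.86, 30.7 and 16.6 at 6pm and 104, 144 and 185 at midnight. Livers of 6am were the highest and those of 6pm the lowest, with no overlap (6pm minus 6am -4.67 ± 0.52, adjusted p = 0.000372). Pitx3, a homeobox factor, read 8.42, 5.21 and 5.58 FPKM at 6am and 0.0443, 0.0957 and 0 at 6pm (joint adjusted p = 0.000141). The Pitx3 gene (chromosome 19, 46135685 to 46148326) overlaps the end of Elovl3 on the opposite strand. As the library kit does not mark strand, reads in the shared bases cannot be assigned, and their part in the Pitx3 values was not tested. Ppp1r3c, which brings protein phosphatase 1 to glycogen, read 78.5, 90.0 and 63.3 FPKM at 6am, 40.5, 26.4 and 53.5 at noon, 5.83, 8.76 and 5.49 at 6pm and 32.8, 28.6 and 48 at midnight. Its 6pm livers were the lowest by a wide margin (-3.26 ± 0.26, adjusted p = 5.24e-05). Insig2, which holds the sterol sensor SCAP in the endoplasmic reticulum, was at 105 to 135 FPKM at 6am, 86.8 to 116 at noon, 15.0 to 26.9 at 6pm and 62.3 to 103 at midnight (6pm minus 6am -2.35 ± 0.23, adjusted p = 0.000171). Chka, choline kinase α, read 15.2 to 16.6 FPKM at 6am and 1.5 to 2.50 at 6pm (-2.55 ± 0.20, adjusted p = 3.47e-05). Adck3, which takes part in coenzyme Q synthesis, and Rnf125, a ubiquitin ligase, followed with ranges of 2.32 and 2.55.

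Of the growth hormone axis 5 of 19 tested genes changed (26.3%, against 11.8% of all genes), 3 with the peak at 6am. These were Elovl3 and the signal transducers Stat5a and Stat5b, and Stat5b read 14.9 to 15.9 FPKM at 6am, 11.7 to 13.2 at noon, 5.86 to 7.85 at 6pm and 7.59 to 9.59 at midnight (6pm minus 6am -0.90 ± 0.09, adjusted p = 0.000247). Of the methionine cycle and choline genes 7 of 16 changed (43.8%), 3 at 6am and 4 at midnight, with a median range of 0.64. That count was 4 without 6am replicate 1, noon replicate 1, 6pm replicate 2 or any midnight library. Bhmt, which remethylates homocysteine with betaine, read 172, 249 and 305 FPKM at 6am, 165, 194 and 286 at noon, 104, 89.3 and 90.4 at 6pm and 298, 198 and 259 at midnight. All its 6pm livers were below the rest, and the other times overlapped (midnight minus 6pm 1.33 ± 0.26, adjusted p = 0.0179). Cbs, which draws homocysteine into cysteine synthesis, was at 139.6 to 166 FPKM in the livers of 6am and noon and at 69.2 to 90.7 at 6pm and midnight (6pm minus 6am -0.77 ± 0.10, adjusted p = 0.00105).

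Genes that peaked at noon differed little from 6am. Of the 316, 2 were higher at noon than at 6am in that pair's own test, 252 were higher than at 6pm and 144 higher than at midnight. After Nr1d1 the widest ranges among these called genes belonged to 1500017E21Rik and Tymp. Tymp (ENSMUSG00000022615, GRCm38 chromosome 15, 89371931 to 89377039), thymidine phosphorylase of pyrimidine breakdown, read 51.6, 48.8 and 49.6 FPKM at 6am, 47.0, 53.6 and 58.4 at noon, 5.96, 9.21 and 5.86 at 6pm and 13.7, 16.4 and 19.4 at midnight. The 6am and noon livers overlapped, and the 6pm livers were the lowest (6pm minus noon -2.64 ± 0.16, adjusted p = 2.22e-05). 1500017E21Rik read 26.3 to 27.7 FPKM at noon, 14.8 to 20.6 at 6am and 1.28 to 6.35 at 6pm and midnight (midnight minus noon -3.03 ± 0.29, adjusted p = 0.000406). Bcl6, a transcriptional repressor, was called (joint adjusted p = 0.0412) with 17.6, 2.33 and 11.0 FPKM at noon and 0.731 to 4.66 elsewhere. The call of Bcl6 was lost in 14 of 21 other fits (adjusted p 0.0014 to 0.117), and that of Ggt7 in 14 of 21 (0.0201 to 0.112). Raet1c and Raet1d, ligands of an immune receptor, also peaked at noon, but they are near-identical copies whose reads may have been split.

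Bile acid genes changed in 2 of 21 tested cases, both at noon, which is 9.52% against the 11.8% of all genes. That count was 8 without 6pm replicate 0, 4 without 6pm replicate 1, 7 without all 6pm livers and 5 with library totals alone. Calls over all genes also rose without 6pm replicate 0 or 1 (1720 and 1896 in place of 1496) and with library totals alone. Without all 6pm livers they fell. Hsd3b7, an enzyme of bile acid synthesis, was at 110.5 to 128 FPKM in the livers of 6am and noon and at 43.7 to 65.3 at 6pm and midnight (6pm minus noon -0.99 ± 0.09, adjusted p = 0.000376). Abcb11, the canalicular bile salt export pump, was at 153 to 193 FPKM at 6am and noon and at 58.7 to 103 later (-1.08 ± 0.12, adjusted p = 0.00082). Cyp7a1, which begins bile acid synthesis, missed the threshold (joint adjusted p = 0.079). Of the urea cycle and amino acid genes 3 of 18 changed (16.7%, and 5 genes with library totals alone). Ass1, an enzyme of the urea cycle, was at 311 to 445 FPKM at noon and 83.9 to 129 at 6pm (-1.59 ± 0.19, adjusted p = 0.00115), and Agxt, which detoxifies glyoxylate, was at 148 to 185 FPKM at noon and 61.9 to 66.9 at midnight (-1.16 ± 0.09, adjusted p = 0.000209). Asl, the next enzyme of the urea cycle, peaked instead at midnight with 172 to 201 FPKM (joint adjusted p = 0.0135).

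**Figure D3:**
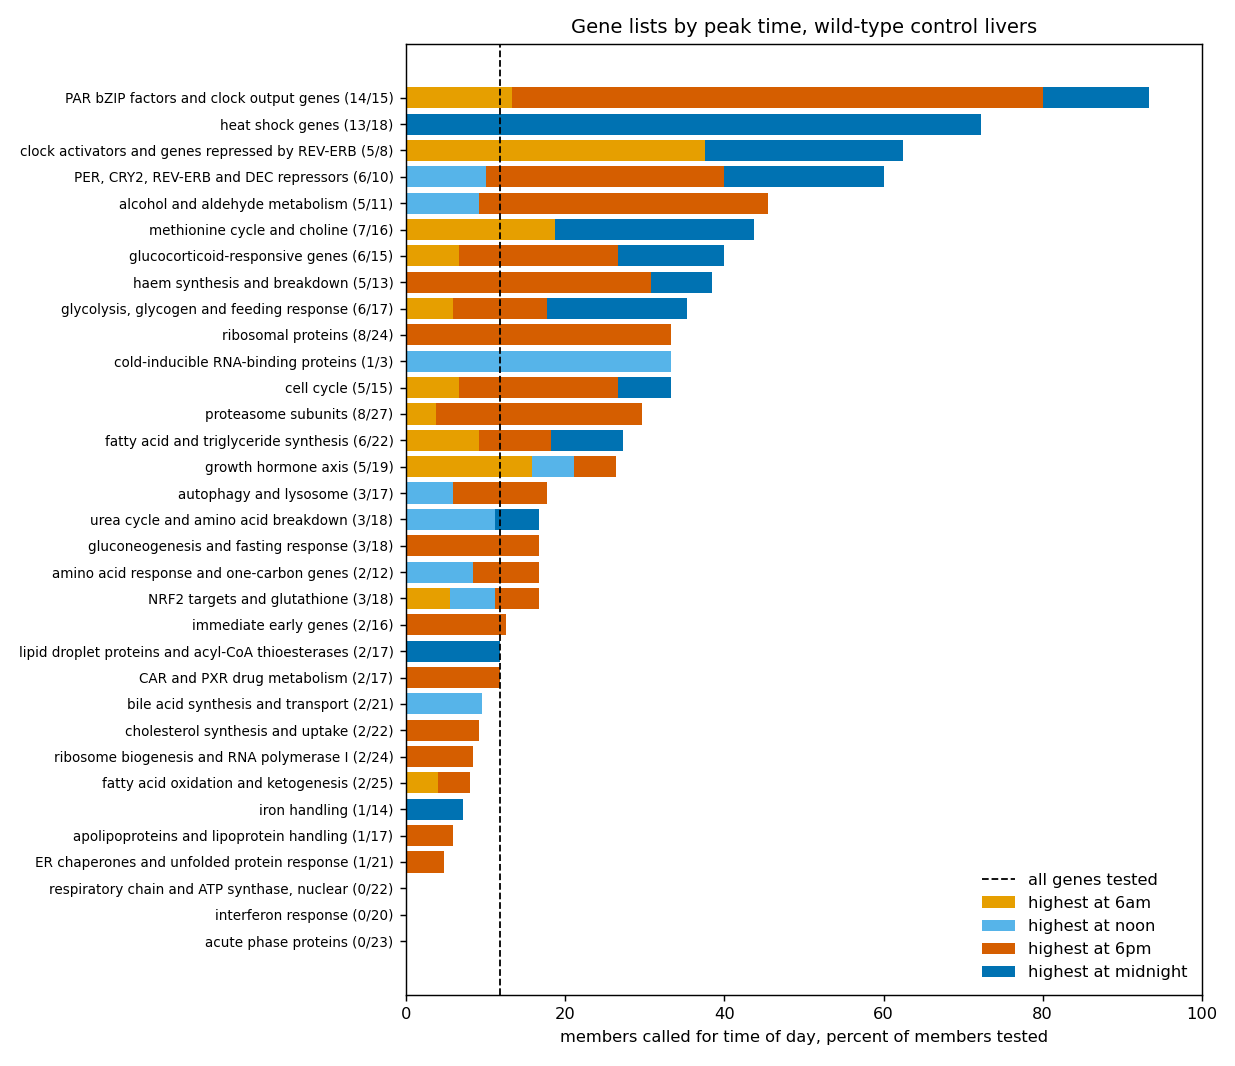
Percent of the tested members of each of the 33 gene lists called for time of day in wild-type controls, coloured by the time of the highest mean, with called and tested members in parentheses. The dashed line is the 11.8% of all genes tested, and the bar of the heat shock genes (13 of 18) is all midnight.

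Among called genes the 2 widest ranges at 6pm were those of the metallothioneins Mt1 and Mt2, which bind zinc and copper and respond to metals, glucocorticoids and inflammation. Mt1 (ENSMUSG00000031765, GRCm38 chromosome 8, 94179082 to 94180327) read 9.62, 5.77 and 5.17 FPKM at 6am, 4.64, 14.6 and 11.3 at noon, 1190.5, 57.6 and 324 at 6pm and 84.7, 23.3 and 20.5 at midnight. All 6pm livers lay above those of 6am and noon, but they differed from each other more than those of any other time. Mt1 was 5.50 ± 0.92 higher at 6pm than at 6am (adjusted p = 0.00467). Mt2 read 431, 19.5 and 291 FPKM at 6pm, 1.25 to 4.02 at 6am and noon and 5.14 to 70.5 at midnight (joint adjusted p = 0.0157), and its call was lost in 2 of 21 other fits (up to 0.0959). Prtn3, a neutrophil protease, read 17.0, 0.870 and 19.4 FPKM at 6pm and lost its call in 13 of 21 fits (0.000272 to 0.217). Summed neutrophil markers ran from 3.01 to 15.9 FPKM at 6pm, against 1.37 to 5.14 at the other times, and 1 of the 3 tested, S100a9, was called. Their part in the Prtn3 result was not tested.

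Genes of metabolism with a 6pm peak included Alas1, the rate-limiting enzyme of haem synthesis. Alas1 read 27.1, 38.6 and 50.3 FPKM at 6am, 33.0, 74.3 and 35.9 at noon, 94.8, 229 and 238 at 6pm and 88.7, 79.2 and 45.1 at midnight. Each 6pm liver was above every other liver, replicate 0 only slightly (6pm minus 6am 2.38 ± 0.40, adjusted p = 0.00496). Of the haem genes 5 of 13 changed (38.5%, against 11.8% of all genes), 4 at 6pm. With library totals alone 2 did, 1 of them at 6pm, and without the 6pm livers none did. The haem count was 1 to 3 without each single library except 6pm replicates 0 and 1. Alcohol and aldehyde genes changed in 5 of 11 cases (45.5%), 4 at 6pm and Aldh9a1 at noon. With library totals alone 3 did, 1 of them at 6pm. Without each single library except 6pm replicates 0 and 1 the count was 2 or 3. Adh1, the main alcohol dehydrogenase of liver, read 912, 1318 and 992 FPKM at 6pm, 996 to 1099.9 at midnight and 717 to 773 at noon (6pm minus noon 0.73 ± 0.13, adjusted p = 0.00717). Pfkfb3, which makes the activator of phosphofructokinase, read 4.81, 8.80 and 6.75 FPKM at 6pm and 0.816 to 2.05 in all other livers (6pm minus 6am 2.24 ± 0.23, adjusted p = 0.000275). Lpin1, a phosphatidate phosphatase, read 35.2, 113 and 50.1 FPKM at 6pm and 9.61 to 29.6 elsewhere (joint adjusted p = 0.0113). Ccnd1, the cyclin of early G1, was at 14.5 to 17.2 FPKM at 6pm and 4.15 to 10.3 elsewhere (6pm minus 6am 1.74 ± 0.20, adjusted p = 0.000535). It was among the 5 of 15 cell cycle genes that changed (33.3%), 3 of them at 6pm. The cell cycle count was 3 without any 6am library, noon replicate 1, 6pm replicate 1 or 2, or midnight replicate 0 or 2.

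Of the gluconeogenesis and fasting response list 3 of 18 genes changed (16.7%, against 11.8% of all genes), all with the highest mean at 6pm. These were Gys2, the glycogen synthase of liver, Slc37a4 and Pck1. Pck1, the committing enzyme of gluconeogenesis, read 147, 1006 and 391 FPKM at 6pm, 79.1 to 96.4 at midnight and 243 to 493 at 6am and noon (joint adjusted p = 0.0414). Of the 6pm livers only replicate 1 lay above every liver of 6am and noon for Pck1. The Pck1 call was lost in 14 of 21 other fits (adjusted p 0.00397 to 0.115). Among cholesterol genes 2 of 22 changed, both at 6pm, which is 9.09% against the 11.8% of all genes. Limma called none of the 22 without 6am replicate 2, noon replicate 0, noon replicate 2 or midnight replicate 1 and none in the fit of all 48 libraries. It called 1 without 6am replicate 0, noon replicate 1, 6pm replicate 0 or midnight replicate 0 or 2, and 4 with library totals alone. Of the endoplasmic reticulum chaperone and unfolded protein response genes 18 of 21 tested had their highest mean at 6pm, against 33.1% of all genes. Their mean log2 level was 6.51 in 6pm replicate 0. In 6pm replicates 1 and 2 it was 5.48 and 5.28, within the 4.98 to 5.96 of the other times. Herpud1 alone was called (joint adjusted p = 0.018), while 2 were called without 6pm replicate 0 or 1 or midnight replicate 1 or 2.

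Ribosomal protein genes changed in 8 of 24 tested cases (33.3%, against 11.8% of all genes), all with the peak at 6pm. Their median range was 0.41. Rpl7, of the large subunit, read 32.8, 29.2 and 29.8 FPKM at 6am, 30.2, 28.7 and 24.6 at noon, 33.8, 31.7 and 39.6 at 6pm and 33.2, 31.8 and 32.0 at midnight. Its 6pm livers were above all noon livers and overlapped with those of 6am and midnight (6pm minus noon 0.55 ± 0.10, adjusted p = 0.00694). The Rpl7 call was lost in 1 of 21 other fits (adjusted p 0.00148 to 0.137). Proteasome subunits changed in 8 of 27 cases (29.6%), 7 at 6pm, with a median range of 0.33, near the 0.31 of all genes. Psmb4 was at 101 to 109.7 FPKM at 6pm and 76.7 to 89.1 elsewhere (6pm minus 6am 0.59 ± 0.09, adjusted p = 0.00263). Both counts depended on single libraries. Without 1 library at a time the ribosomal count ran from 1 (without noon replicate 2) to 9. It was 6 or more without 6pm replicate 1, midnight replicate 0 or midnight replicate 2, and 4 or fewer without each of the 9 others. The proteasome count ran from 3 to 5, below 8 without each of the 12 libraries. With library totals alone 2 ribosomal genes were called, and of 7 proteasome genes then called 5 peaked at noon. Without the 6pm livers none of either list was called.

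Genes of the heat shock response, chaperones under the factor HSF1 that refold proteins, had their peaks at midnight. Of 18 tested, 13 changed (72.2%, against 11.8% of all genes), and all 13 peaked at midnight. The median range over the list was 0.81. Hsph1 (ENSMUSG00000029657, GRCm38 chromosome 5, 149614287 to 149636376), an HSP110 chaperone, read 9.03, 7.64 and 9.55 FPKM at 6am, 4.07, 3.5 and 3.96 at noon, 6.01, 6.62 and 6.17 at 6pm and 13.7, 16.8 and 10.3 at midnight. The livers of the 4 times did not overlap, and midnight was highest (midnight minus noon 1.82 ± 0.16, adjusted p = 0.000209). Hsp90aa1, the inducible cytosolic HSP90, read 6.86, 6.95 and 6.07 FPKM at 6am, 5.00, 3.92 and 4.71 at noon, 6.96, 4.79 and 4.57 at 6pm and 11.9, 15.2 and 11.1 at midnight. Its midnight livers were the 3 highest (1.53 ± 0.18, adjusted p = 0.00134). The other 11, among them Hspa8, Hsp90ab1, Hspb1, Dnajb1 and the HSP90 co-chaperones Stip1, Fkbp4, Ahsa1 and Chordc1, had ranges from 0.63 to 1.14. Averaged over the 18 genes, the log2 level with trimmed-mean factors was 4.34 to 4.72 in the midnight livers, 4.03 to 4.15 at 6am, 3.94 to 4.08 at 6pm and 3.66 to 3.88 at noon. On that scale midnight and noon did not overlap with any other time. In summed deposited FPKM midnight was again highest (712 to 868), but 6pm (471 to 523) lay below noon (528 to 576). Between 10 and 14 members were called without 1 library at a time, 15 with library totals alone (14 at midnight) and 12 without the 6pm livers.

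**Figure D4:**
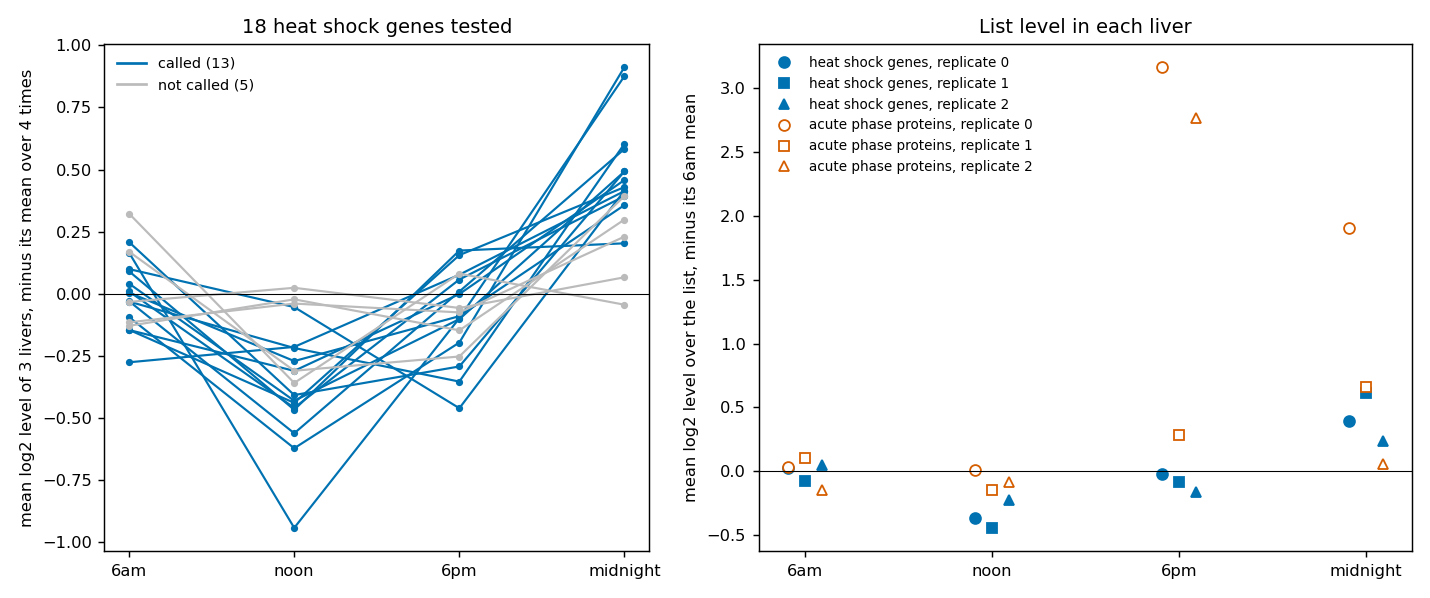
The left panel draws each of the 18 heat shock genes tested as its mean log2 level at each time minus its mean over the 4 times, in blue where called (13). The right panel gives for each liver the mean log2 level over the heat shock list and over the acute phase list, minus the list's 6am mean. The heat shock lines rise at midnight in all 3 livers, and the acute phase level is high in 2 of the 3 livers of 6pm.

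Of the glycolysis, glycogen and feeding genes 6 of 17 changed (35.3%, against 11.8% of all genes), 3 at midnight. Pfkfb1, the liver enzyme that makes or removes the activator of phosphofructokinase, read 11.9, 12.4 and 14.3 FPKM at 6am, 10.4, 10.2 and 12.6 at noon, 14.9, 17.9 and 11.3 at 6pm and 25.6, 17.8 and 24.7 at midnight. Its midnight livers overlapped with a liver of 6pm (midnight minus noon 1.15 ± 0.18, adjusted p = 0.00691). Lipogenic genes changed in 6 of 22 cases (27.3%), 2 each at 6am, 6pm and midnight (3 were called without midnight replicate 1). The highest mean fell at midnight for 14 of the 22, against 21.3% of all genes tested. Thrsp, a lipogenic gene induced by carbohydrate and thyroid hormone, read 235, 487 and 677 FPKM at 6am, 282, 411 and 933 at noon, 1199.6, 1509.7 and 864 at 6pm and 1803, 1401 and 1829.9 at midnight. The 6am and noon livers spread widely and overlapped, and the midnight livers overlapped with those of 6pm (midnight minus noon 1.97 ± 0.46, adjusted p = 0.0377). Plin5, a lipid droplet protein, was at 30.8 to 40.0 FPKM at midnight and 15.2 to 29.0 elsewhere (midnight minus noon 0.96 ± 0.15, adjusted p = 0.00582).

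Eif4ebp3, a repressor of translation initiation, had the widest range among called midnight genes, with 30.5, 24.5 and 28.5 FPKM at 6am, 11.2, 18.2 and 15.7 at noon, 113, 46.3 and 42.5 at 6pm and 151, 84.4 and 90.0 at midnight. Noon was lowest, and 6pm replicate 0 overlapped with the midnight livers (midnight minus noon 2.94 ± 0.37, adjusted p = 0.00188). Fkbp5, an immunophilin induced by glucocorticoids, read 4.88, 5.85 and 4.91 FPKM at 6am, 3.36, 3.5 and 3.08 at noon, 11.8, 12.9 and 13.1 at 6pm and 38.0, 13.8 and 16.2 at midnight. The livers of the 4 times did not overlap, and midnight replicate 0 stood far above the other livers (2.61 ± 0.28, adjusted p = 0.000703). Of the glucocorticoid-responsive list 6 of 15 changed (40.0%, against 11.8% of all genes), with a median range of 1.58. These were Per1, Mt1 and Mt2 at 6pm, Fkbp5 and St3gal5 at midnight and Cdkn1a at 6am. Cyp26b1, which breaks down retinoic acid, read 3.52 to 6.05 FPKM at midnight and 0.360 to 0.729 at noon (joint adjusted p = 0.00313). The mitochondrial transfer RNA genes mt-Th and mt-Ts2 met the same rule but are short, and mt-Th lost its call in 11 of 21 other fits (adjusted p 0.00181 to 0.239). Gm15889 shares exon sequence with Gm15890 on the opposite strand, and the library kit does not mark strand, so its reads cannot be assigned.

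The 6pm livers were not alike. Acute phase proteins, secreted by hepatocytes in inflammation, had a median range of 1.68. The highest mean fell at 6pm for 22 of 23 tested, against 33.1% of all genes tested. Yet limma called none of the 23, with 15 at an unadjusted p under 0.05 and 1 called by voom on the recovered reads. Saa2, serum amyloid A2, read 19.0, 20.4 and 14.7 FPKM at 6am, 21.5, 24.7 and 21.3 at noon, 11368, 83.8 and 8767 at 6pm and 2649.6, 145 and 28.2 at midnight. Replicates 0 and 2 of 6pm and replicate 0 of midnight were high and the others were far lower (joint adjusted p = 0.0546), and its reads may be shared with the near-identical Saa1. Hp, haptoglobin, read 9754, 1821 and 6923 FPKM at 6pm against 1341 to 4421 elsewhere (joint adjusted p = 0.0721). Without 6pm replicate 1, 21 of the 23 were called, without midnight replicate 0, 3 were, and without midnight replicate 2, 1 was. The fit of all 48 libraries called 4. Of the livers with high acute phase levels, 6pm replicate 0 had the lowest value of its time for Dbp, Tef, Gm129, Coq10b, Por, Alas1 and Nampt, and the lowest mean log2 level over the 15 clock outputs (3.49). The other two had the highest clock output level of their times, with 4.29 in 6pm replicate 2 (4.25 in replicate 1) and 3.75 in midnight replicate 0 (3.49 and 3.43 in the others). Summed Kupffer cell markers ran from 195 to 526 FPKM at 6pm and from 167 to 384 at the other times, and limma called none of the 12 (none at an unadjusted p under 0.05). Their part in the acute phase result was not tested.

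Several lists stayed near the 11.8% of all genes or below it. Of fatty acid oxidation and ketogenesis genes 2 of 25 were called, Pdk4 at 6am and Angptl4 at 6pm, and each lost its call in 13 of 21 other fits (adjusted p up to 0.0958 and 0.559). Limma called none of the 25 without 6am replicate 0, any noon library, 6pm replicate 2 or midnight replicate 1 or 2, nor with the replicate block, and it called 1 without 6am replicate 1 or 2 or midnight replicate 0. Of 22 respiratory chain genes limma called none (2 at an unadjusted p under 0.05, none by voom), with a median range of 0.20, and of 20 interferon-responsive genes it called none (5 at an unadjusted p under 0.05, none by voom), though 2 without 6pm replicate 0 and 1 without 6am replicate 1 or noon replicate 1. Drug metabolism genes under the receptors CAR and PXR changed in 2 of 17 cases. Their count was 5 without 6pm replicate 0, 1 without any 6am library, noon replicate 1 or 2, 6pm replicate 2 or midnight replicate 0 or 1, and 0 in the fit of all 48 libraries. Targets of NRF2 and glutathione genes changed in 3 of 18 cases (1 without each single library except 6pm replicates 0 and 1 and midnight replicate 0) and autophagy genes in 3 of 17 (6 without 6pm replicate 1, and 6 with library totals alone). Immediate early genes changed in 2 of 16 cases, with 4 called without 6pm replicate 1 and 1 without 6am replicate 1 or 2, noon replicate 0, 6pm replicate 2 or midnight replicate 1. Among them Junb, a subunit of AP-1, read 20.9, 32.2 and 9.62 FPKM at 6pm and 2.06 to 3.58 at midnight (joint adjusted p = 0.00873).

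The control livers labelled as SHP knockouts gave the same times in other animals. Nr0b2, the gene of SHP, was read there too, with means of 9.05 to 29.9 FPKM over the 4 times, against 15.2 to 29.5 in wild-type controls, so the label is kept as given. In these 12 libraries time of day changed 1109 of 13269 genes (8.36%), of which 474 were also called in wild type (31.7% of the wild-type calls and 42.7% of the others). Of 1487 wild-type calls tested in both, 913 (61.4%) had their highest mean at the same time, against 40.7% of all genes tested in both. The share was 78.5% for 6pm peaks, 66.9% for 6am, 57.1% for midnight and 32.2% for noon. All 5 called clock activators were called there with the same peak, as were 11 of the 14 called outputs and 5 of the 6 called repressors. Nr1d2 and Dbp were highest at noon there. Of the 13 called heat shock genes all 13 were highest at midnight and 11 were called. The 8 called ribosomal and the 8 called proteasome genes had the same peaks, but 1 and 2 of them were called. Of the 10 called genes with the widest ranges at each time, 9 were called with the same peak for 6am, 3 for noon, 6 of the 9 tested for 6pm and 2 for midnight. A test of the difference between both time courses itself (limma over all 48 libraries) called 9 of 13765 genes (0.0654%, with 1072, or 7.79%, at an unadjusted p under 0.05). It called none without noon replicate 1 or noon replicate 2, 3 without noon replicate 0 and 1 without 6pm replicate 2.

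**Figure D5:**
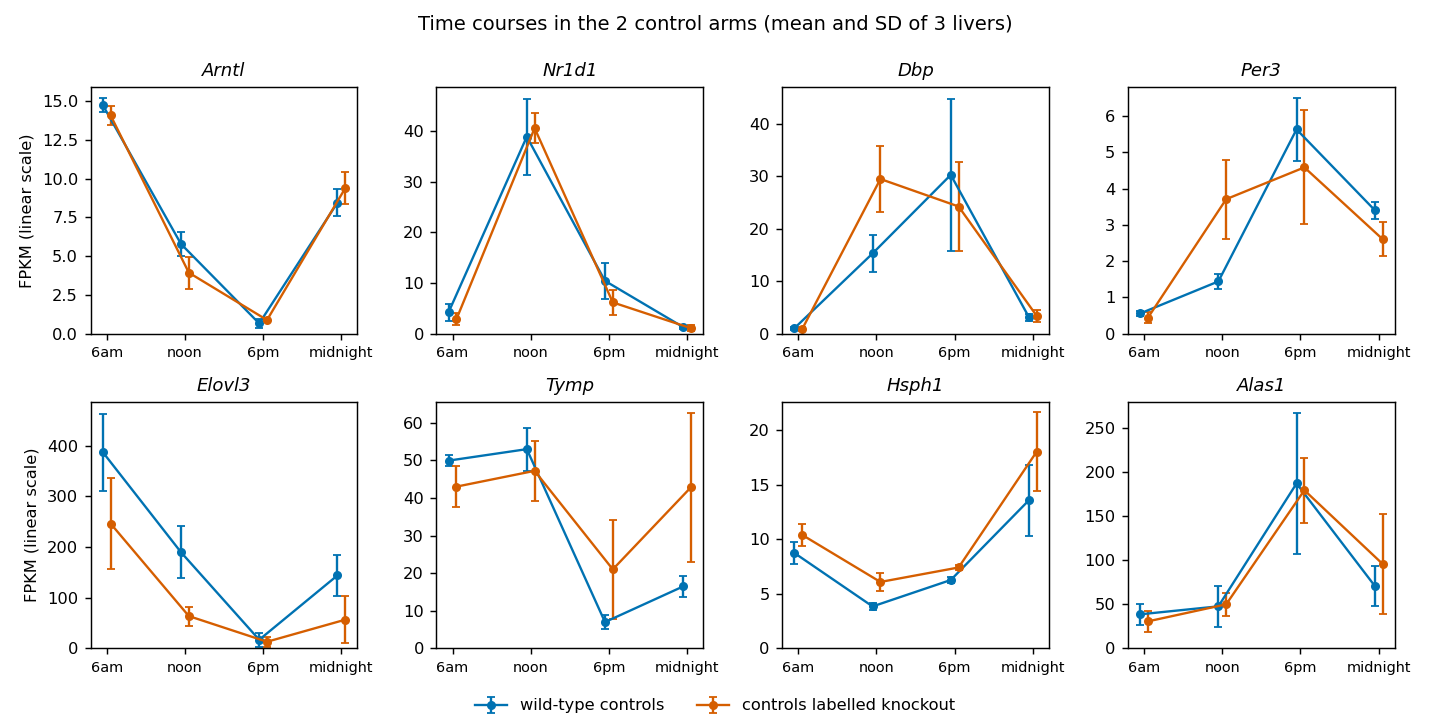
Mean FPKM (linear axis) by clock time of 8 genes in wild-type controls (blue) and in controls labelled knockout (orange), with bars of 1 SD over 3 livers. Both arms have their highest mean at 6am for Arntl and Elovl3, at noon for Nr1d1 and at midnight for Hsph1, and Dbp is highest at noon in the controls labelled knockout.

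In the wild-type livers of the ethanol regimen time of day changed 2623 of 12642 genes (20.7%). Against them the time course differed for 1457 of 13765 genes (10.6%, with 3699, or 26.9%, at an unadjusted p under 0.05). Among the 1496 genes with a daily change in wild-type controls 539 (36.0%) differed, and the share was 42.8% of those that peaked at 6am, 26.9% at noon, 36.2% at 6pm and 36.9% at midnight. Both courses use the wild-type control livers that chose the 1496 genes, so these shares are a description. In a fit of the 24 libraries of both arms alone, 2603 genes differed.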

How the data were processed

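Poly(A) RNA of whole liver was read as single 50-cycle reads from TruSeq RNA v2 libraries, per the labels' protocols. The submitters' processing notes name Novoalign (version not given) and GRCm38. The authors deposited FPKM for 15041 genes. No source used here says how reads shared by near-identical genes were counted. Steps between low values returned whole reads for all 15041 genes (relative tolerance 1e-08), and no 2 livers of a group were duplicates (chi-square per degree of freedom 14.0 to 148.6).

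Trimmed-mean scale factors from these reads (0.856 to 1.115) divided the FPKM. limma (3.58.1, R 4.3.3) with a mean-variance trend was fitted to log2(FPKM + 0.5) of the 12 libraries, which understates changes of low genes. A gene was tested if 3 or more libraries reached 0.5 FPKM (12729 tested, 2312 removed). Adjusted p-values are Benjamini-Hochberg over all genes tested. Time-course differences between arms used all 48 libraries and 13765 genes. The method was tested on simulated data.

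Positions are from GENCODE M21 (14518 IDs matched). The 33 pathway and 10 marker lists and the members were chosen with earlier results of these data known. Genes named are the 10 widest ranges among called genes for each peak time with a mean of at least 2 FPKM over the 12 libraries, up to 4 members of each list with the smallest joint adjusted p, all members of the 3 clock lists and the 5 smallest adjusted p of each time-course difference. Other genes in the text were chosen after their values were seen. A few genes within these limits are left out here.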

Additional observations from a re-analysis of the deposited data

Results flagged for a closer look

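The time course of 10 genes differed between wild-type controls and another arm by a limma test of the difference over all 48 libraries, the 5 smallest adjusted p being taken in each comparison. Levels below are mean FPKM of 3 livers at 6am, noon, 6pm and midnight in that order.

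Against the ethanol regimen the 5 were genes with a daily change in controls. Arntl, the gene of BMAL1, had the smallest adjusted p (1.55e-11), with 14.8, 5.78, 0.654 and 8.45 in controls and 5.88, 1.06, 7.33 and 9.28 with ethanol. Chka, choline kinase, had its maximum of 15.7 at 6am in controls and of 15.8 at 6pm with ethanol, where controls stood at 1.98 (adjusted p = 2.84e-07). Cry1 (adjusted p = 3.18e-07) read 12.5, 3.68, 3.24 and 14.3 in controls and 2.25, 2.73, 10.1 and 10.1 with ethanol. Dtx4 (adjusted p = 4.18e-08) was lowest at 6pm in controls (1.06) and highest there with ethanol (4.77). Npas2 (adjusted p = 3.34e-07) had 2.74 at 6am in controls and 0.506 with ethanol.

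Against the controls labelled knockout, Brp44l (a carrier of pyruvate into mitochondria), Cox7c (a subunit of cytochrome oxidase), D430001F17Rik and Gm10800 each had an adjusted p of 0.0299, and Atp5l (a subunit of ATP synthase) had 0.0307. Cox7c was highest at noon in wild-type controls (13.6 ± 0.8, SD, n = 3) and at 6pm in the others (11.3 ± 0.4). Brp44l read 12.3 at noon and 7.12 at 6pm in wild type and 9.48 and 13.1 in the others, and Atp5l, with 13.3 and 6.04 against 7.14 and 9.71, ran the same way. D430001F17Rik read 9.90 at noon and 6.18 at 6pm in wild type, against 6.26 and 9.49. Gm10800 had a 6pm mean of 8.06 ± 10.6 in wild type, where its livers differed by more than the mean.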

How the results depend on the processing

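With library totals alone 2681 genes were called for time of day (894 peaking at 6am, 1301 at noon, 225 at 6pm), 2992 between 6pm and noon, 2370 between 6pm and 6am and 1190 between midnight and noon, and the range of Atp5o, which was not called, turned to -0.017. In the fit of all 48 libraries 316 genes changed between midnight and 6pm, and fewer members were called for proteasome (3), methionine and choline (3), alcohol (2), haem (2), cell cycle (1) and NRF2 (1) genes. Without the 6pm livers, an alternative chosen after seeing the data, 788 genes were called, 145 of them with the peak at 6am. For the difference of time courses, 2603 genes were called against ethanol in a fit of 24 libraries, and 5 against the controls labelled knockout with voom on the recovered reads. That voom fit called 1578 genes for time of day in place of 1496. Pseudocounts of 0.1 and 1, no filter and a filter at 1 FPKM, a cosine curve and the peak by the median kept the count of called genes within 1.5 times, from 1389 to 1573.

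Leaving out 1 library at a time gave 855 to 1896 called genes, with 216 to 421 peaks at 6am, 171 to 419 at noon, 264 to 726 at 6pm and 171 to 454 at midnight. The pairs gave 12 to 31 genes (noon minus 6am), 703 to 1997 (6pm minus noon), 180 to 792 (midnight minus 6pm), 37 to 423 (6am minus midnight), 607 to 2013 (6pm minus 6am) and 164 to 1009 (midnight minus noon). Among genes named, of 21 or 22 other fits the call was lost in 4 for Bhmt (adjusted p up to 0.111), in 2 for Herpud1 (0.0829), G0s2 (0.228) and Thrsp (0.101), and in 1 for Abcb11, Asl, Ass1, Ccnd1, Cdkn1a, Hfe2, Lpin1, Plin5 and St3gal5. Differences of time course ran from 0 to 11 (knockout label) and from 1062 to 1339 (ethanol).

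The labels number the replicates alike at each time. Same-numbered livers deviated together in 3 of 18 pairs (r over 0.1, from -0.169 to 0.176), and 4 of 12 libraries lay closest to their own number. These values did not show pairing by number. With deviations from means of 3 livers they cannot exclude it, and the main fit did not pair the livers. With the replicate block 1019 genes were called, 313 of them with the peak at 6pm. Differences among low genes are limited by depth, since 1 read is worth up to 0.0865 FPKM at 1000 bases.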

Other observations

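Some small groups changed over the day in ways not described above. Of 12 genes of the amino acid response, 2 were called (16.7%, against 11.8% of all genes). Limma called none without noon replicate 0 or midnight replicate 1, and none in the fit of all 48 libraries. It called 1 without any 6am library, noon replicate 2, 6pm replicate 2 or midnight replicate 0 or 2. Trib3, a pseudokinase, read 2.14 to 2.77 FPKM at noon and 0.467 to 0.784 at midnight (limma joint adjusted p = 0.0171, up to 0.532 in the 3 of 22 other fits that lost the call). Chac1, which degrades glutathione, read 3.88 to 5.30 FPKM at 6pm (0.0494) and lost its call in 16 of 21 other fits (adjusted p up to 0.187). Srsf5, a splicing factor listed with the cold-inducible RNA-binding proteins, was at 52.2 to 72 FPKM at noon and 32.0 to 44.4 at 6pm (0.0347, lost in 10 of 22 other fits), while Cirbp (0.204) and Rbm3 (0.56) missed the threshold. Hfe2, hemojuvelin of iron sensing, was at 36.1 to 38.7 FPKM in the 3 livers of 6pm and at 57.3 to 67.1 in the other 9 (0.00749). G0s2, an inhibitor of the lipase ATGL, was at 25.6 to 40.9 FPKM at 6pm and 81.4 to 215 elsewhere (0.0146). Of 24 genes of ribosome biogenesis 2 were called, both at 6pm, which is 8.33% against the 11.8% of all genes. The count was 5 without 6pm replicate 1 and in the fit of all 48 libraries, and 1 without any 6am or noon library or 6pm replicate 2. Ncl, nucleolin, read 25.5, 26.4 and 26.0 FPKM there against 18.4 to 23.5 elsewhere (0.00192).

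Markers of the minor liver cells gave few calls. Endothelial markers were called in 0 of 13 cases, though 11 of the 13 had their highest mean at 6am, against 21% of all genes tested. Their sums were 127 to 156 FPKM at 6am and 79.3 to 142 at the other times. None of them passed at an unadjusted p under 0.05. Limma called 0 of 13 stellate cell markers, 0 of 8 lymphocyte markers and 0 of 4 erythroid markers (1, 1 and 2 at an unadjusted p under 0.05). Sox9, a cholangiocyte marker, was the 1 of 5 called, with 2.35 to 3.09 FPKM at 6am and 0.529 to 1.23 at 6pm (0.0219).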
